A study of Mus musculus with 6 samples.

Results

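The genes described here encode the mevalonate arm of cholesterol synthesis, the steps that lead from acetyl-CoA to squalene. They are Acat2, Hmgcs1, Mvk, Pmvk, Mvd, Idi1, Fdps and Fdft1, 8 genes named by their place in the pathway. A probe set, the group of array probes that reports 1 transcript, was taken for a gene where the platform annotation gave it that single symbol. This gave 18 of the 45101 probe sets on the array, for 7 of the 8 genes, out of 18194 genes with such a probe set. Acat2, the cytosolic thiolase that joins 2 acetyl-CoA, was not analysed here because none of the probe sets used carried its symbol alone. Of the 18, 14 reached a mean intensity of 50 in at least 1 treatment group and are called kept, and each of the 7 genes had at least 1 of them.

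The pathway starts when acetyl-CoA is condensed to HMG-CoA, which is then reduced to mevalonate. Kinases and a decarboxylase turn mevalonate into activated isoprene units, and prenyl transferases join these into farnesyl diphosphate and squalene. Farnesyl diphosphate also feeds protein prenylation, dolichol and ubiquinone. When sterols in the endoplasmic reticulum are low, transcription factors of the SREBP family induce most genes of the pathway. The brain makes its own cholesterol because plasma lipoproteins do not cross the blood-brain barrier, and in the adult much of it is made by glia.

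The RNA came from cortex of Glt25d2 bacTRAP mice, line DU9, backcrossed for 3 to 5 generations from FVB onto C57BL/6. In this line the Glt25d2 driver (Colgalt2 in current naming) directs a tagged ribosomal protein to pyramidal cells of cortical layer 5, and affinity purification of tagged ribosomes (TRAP) enriches messages under translation in them. The treated group drank fluoxetine, a serotonin reuptake inhibitor, at 0.167 mg/ml in 1% saccharine and the control group drank 1% saccharine alone, each for 15 to 18 days, with 3 arrays per group. All groups share the transgene, and the labels give neither the age of the mice nor how many went into each array. The p-values measure the spread between these arrays, which the labels call biological replicates.

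The sample descriptions name the opposite treatment to the title, source and treatment fields. Groups follow those 3 fields and are called fluoxetine-titled and vehicle-titled, and if the descriptions were right every sign below would turn. Arrays that share a replicate number deviated from their group means together and are called pairs 1, 2 and 3. Vehicle-titled array 3 was far the lowest in markers of astrocytes, oligodendrocytes, microglia and interneurons, and list values without it are given below. The driver gene Colgalt2 had intensities between 709 and 986 on the fluoxetine-titled and between 828 and 918 on the vehicle-titled arrays, so the defining gene of the labelled cells was present on every array. Of 12 markers listed for these cells 11 were kept.

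Promoter sequence is shown for the members whose windows held the sequence motifs searched more than 1 time, since SREBP acts on this pathway together with the CCAAT-binding factor NF-Y. The sequences are RefSeq's, build GRCm38.p6, the 250 bases before the annotated start, 5′ to 3′ on the gene's strand, and 6 of the 8 members matched the table, Fdps and Fdft1 being the other two. Capitals mark CCAAT on either strand (ATTGG when it lies on the other strand) and, in Hmgcs1, the sterol element TCACNCCAC. The windows are chr13:119690101-119690350, plus strand, for Hmgcs1, chr5:114444019-114444268, plus strand, for Mvk, chr8:122443423-122443672, minus strand, for Mvd, and chr13:8885356-8885605, plus strand, for Idi1.
Hmgcs1: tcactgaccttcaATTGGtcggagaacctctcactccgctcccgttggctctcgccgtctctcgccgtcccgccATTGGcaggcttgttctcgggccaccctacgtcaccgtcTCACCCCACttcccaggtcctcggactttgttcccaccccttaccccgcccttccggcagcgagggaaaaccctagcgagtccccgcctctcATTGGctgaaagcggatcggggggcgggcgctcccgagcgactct
Mvk: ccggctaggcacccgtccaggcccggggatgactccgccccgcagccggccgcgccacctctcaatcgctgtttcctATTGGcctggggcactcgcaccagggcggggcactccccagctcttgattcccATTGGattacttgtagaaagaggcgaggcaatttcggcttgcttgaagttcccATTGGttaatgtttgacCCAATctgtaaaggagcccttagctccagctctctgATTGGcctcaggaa
Mvd: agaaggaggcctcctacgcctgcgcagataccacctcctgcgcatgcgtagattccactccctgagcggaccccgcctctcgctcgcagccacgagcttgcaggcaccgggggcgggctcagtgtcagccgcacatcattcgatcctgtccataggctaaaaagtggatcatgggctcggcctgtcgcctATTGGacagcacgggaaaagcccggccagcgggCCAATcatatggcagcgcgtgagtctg
Idi1: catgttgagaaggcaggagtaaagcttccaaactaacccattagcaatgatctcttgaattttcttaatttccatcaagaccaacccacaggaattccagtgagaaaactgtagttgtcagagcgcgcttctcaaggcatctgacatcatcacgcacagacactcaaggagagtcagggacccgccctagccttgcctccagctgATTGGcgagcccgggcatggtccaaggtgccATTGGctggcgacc
The CCAAT letters occurred 5 times in the Mvk window, 3 times in that of Hmgcs1, and 2 times each in those of Mvd and Idi1. Pmvk has 2 windows in the table, with 1 match and 0 matches, and the Acat2 window had 0. Of all 32851 promoter windows of the same length, 33.8% held CCAAT at least 1 time and 10.1% at least 2 times. The sterol element TCACNCCAC was found in 1.05% of all windows and among the members in that of Hmgcs1, as TCACCCCAC on the plus strand, with no overlap with a CCAAT match. These matches are letters in a window and were not tested as binding sites.

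The treatment comparison concerns the purified RNA, meant to hold what layer 5 pyramidal cells translate. Markers of other cell types were present in it too, and no array of unpurified RNA was available to measure the enrichment. No member passed the test across all probe sets, and the members' differences were small and mostly positive. With 1 probe set per gene, the one of highest mean, 7 of 7 members had a positive log2 difference, where 47.8% of 10830 genes kept did. Their median was 0.19, against -0.0068 over all genes kept, and the values ran from 0.050 for Pmvk to 0.53 for Idi1. The fit was limma on log2 intensity with Benjamini-Hochberg adjustment over 19073 probe sets, of which 0 (0%) had an adjusted p under 0.05 and 121 (0.634%) an unadjusted p under 0.05. For each of the members' 14 probe sets the adjusted p was 1 after rounding. Without vehicle-titled array 3, 5 of 7 members had a positive difference and the median was 0.13. The members were chosen with earlier results of these data known. Counts of members beside shares of all genes, here and below, are thus a description and not a test.

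Within pairs, 3 of 7 members, Mvk, Mvd and Idi1, were higher on the fluoxetine-titled array in all 3 pairs, beside 10.9% of genes kept, and 0 were lower in all 3, beside 13.1%. The former count was 5 after quantile normalization. The lowest fluoxetine-titled value exceeded the highest vehicle-titled one for 2 of 7, Mvk and Idi1, beside 1.63% of genes kept, and the reverse held for 0 of 7, beside 1.98%. With the log2 values of all kept probe sets of a gene averaged, that count was 0. The median over the members was 0.26 in pair 1, 0.085 in pair 2 and 0.30 in pair 3.

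**Figure D1:**
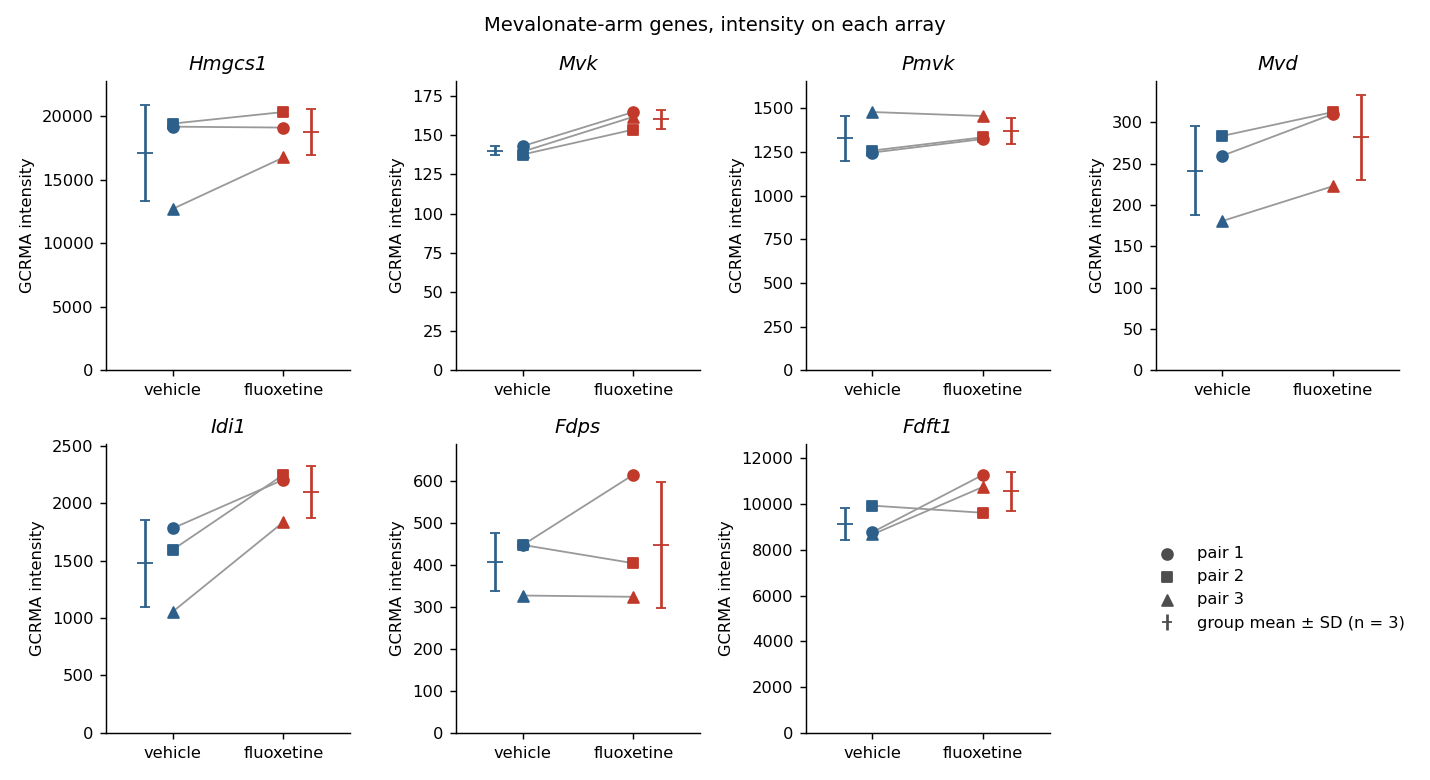
GCRMA intensity (linear axis from 0) of the highest-mean probe set of 7 mevalonate-arm genes on each vehicle-titled (blue) and fluoxetine-titled (red) array; grey lines join arrays of equal replicate number, and bars at the sides show the group mean ± SD (n = 3). The values of Mvk and Idi1 do not overlap between the groups, and the vehicle-titled array of pair 3 is the lowest for Hmgcs1, Mvd and Idi1.

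Hmgcs1 encodes the cytosolic HMG-CoA synthase, which adds acetyl-CoA to acetoacetyl-CoA. Its probe set of highest mean had intensities of 19126, 20352 and 16770.3 on fluoxetine-titled arrays 1, 2 and 3, and of 19197, 19439.7 and 12716 on vehicle-titled arrays 1, 2 and 3. The groups overlapped, since vehicle-titled arrays 1 and 2 reached the level of the fluoxetine-titled arrays and array 3 was low. The means were 18749 ± 1820.2 and 17118 ± 3814 (SD, n = 3 each), a log2 difference of 0.15 ± 0.20 (SE; 95% interval -0.31 to 0.62).

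The other 3 kept probe sets of Hmgcs1 had log2 differences of 0.31 ± 0.19, 0.34 ± 0.18 and 0.27 ± 0.27. They were higher on the fluoxetine-titled array of every pair, which the probe set of highest mean was not (-0.0054 in pair 1, 0.066 in pair 2 and 0.40 in pair 3). The third in order of mean had 15336, 19478 and 13363 on fluoxetine-titled arrays 1 to 3 and 12569, 14289 and 11003 on vehicle-titled arrays 1 to 3. Array pair 2 was the highest and pair 3 the lowest in both groups, and the groups overlapped. Without vehicle-titled array 3 the log2 difference of the first probe set was -0.048, and those of the others were 0.20, 0.24 and 0.092. Without fluoxetine-titled array 2 the fourth had 0.013. A further Hmgcs1 probe set stayed at or below an intensity of 10.6 on every array and was not tested.

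Mvk encodes mevalonate kinase, the first of the 2 kinases of the arm. Its probe set of highest mean had intensities of 165, 154 and 162 on fluoxetine-titled arrays 1 to 3 and of 143, 138 and 139.5 on vehicle-titled arrays 1 to 3. Every fluoxetine-titled value lay above every vehicle-titled one, and both groups were tight. The log2 difference was 0.19 ± 0.12 (95% interval -0.083 to 0.47), with 0.20, 0.16 and 0.21 in pairs 1 to 3.

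The second Mvk probe set had the opposite sign. It read 86.4, 79.0 and 78.7 on the fluoxetine-titled arrays and 91.5, 86.5 and 89.0 on the vehicle-titled arrays, in order of replicate number, a log2 difference of -0.13 ± 0.12 (95% interval -0.41 to 0.15). It was lower on the fluoxetine-titled array in every pair, and its highest fluoxetine-titled value lay just below its lowest vehicle-titled one. The probe sets of Mvk thus gave no common direction, and with both averaged the log2 difference was 0.031. The name of the second Mvk probe set ends in _a_at, which marks probes shared by several transcripts of a gene. The first Hmgcs1, the Pmvk and the second Idi1 probe set have the same ending.

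Pmvk encodes phosphomevalonate kinase, which adds the next phosphate, and had 1 probe set. The intensities were 1325, 1334 and 1456 on fluoxetine-titled arrays 1 to 3 and 1247, 1258 and 1479 on vehicle-titled arrays 1 to 3. Here pair 3 was the highest in both groups, the reverse of Hmgcs1, Mvd and Idi1, and the groups overlapped. The log2 difference was 0.050 ± 0.13 (95% interval -0.26 to 0.36). It was the smallest among the members.

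Mvd encodes the decarboxylase that makes isopentenyl diphosphate, the activated isoprene unit. Its probe set of highest mean had intensities of 310.1, 312 and 223 on fluoxetine-titled arrays 1 to 3 and of 259.5, 283 and 181 on vehicle-titled arrays 1 to 3. Pair 3 was low in both groups, and the fluoxetine-titled array was the higher of each pair. The log2 difference was 0.23 ± 0.22 (95% interval -0.29 to 0.76), and without vehicle-titled array 3 it was 0.038.

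The second Mvd probe set had the same log2 difference, 0.23 ± 0.18, with another pattern over the arrays. It read 178, 265 and 196 on fluoxetine-titled arrays 1 to 3 and 159, 189 and 190.3 on vehicle-titled arrays 1 to 3. Fluoxetine-titled array 2 was the highest, and without it the log2 difference was 0.067, while without vehicle-titled array 3 it was 0.28.

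Idi1 encodes isopentenyl diphosphate isomerase, which converts the isoprene unit into its allylic form, and had the largest difference among the members. Its probe set of highest mean had intensities of 2206, 2248 and 1836 on fluoxetine-titled arrays 1 to 3 and of 1781, 1595 and 1056 on vehicle-titled arrays 1 to 3. The groups did not overlap, with fluoxetine-titled array 3 close above vehicle-titled array 1. The fold was 1.45, a log2 difference of 0.53 ± 0.22 (95% interval 0.024 to 1.04; unadjusted p = 0.0425 in limma, adjusted p = 1). This was the 1 member probe set of 14 with an unadjusted p under 0.05.

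The second Idi1 probe set had 1761, 1463 and 1201 on fluoxetine-titled arrays 1 to 3 and 1401, 907 and 651 on vehicle-titled arrays 1 to 3, a log2 difference of 0.63 ± 0.29. Both probe sets were higher on the fluoxetine-titled array of every pair, by 0.31, 0.50 and 0.80 for the first and 0.33, 0.69 and 0.88 for the second in pairs 1 to 3. On the second, fluoxetine-titled array 3 lay below vehicle-titled array 1, so the groups overlapped. Without vehicle-titled array 3 the log2 differences were 0.31 and 0.37. With the replicate number as a block in limma, the first had an interval from 0.23 to 0.83 and an adjusted p of 0.993.

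Fdps encodes farnesyl diphosphate synthase, the prenyl transferase at the branch between sterols and prenylated proteins. Its probe set of highest mean had intensities of 615, 404 and 324 on fluoxetine-titled arrays 1 to 3 and of 447, 448 and 327 on vehicle-titled arrays 1 to 3. Fluoxetine-titled array 1 was the highest, and the groups overlapped in the rest. The log2 difference was 0.099 ± 0.26 (95% interval -0.51 to 0.71). It was 0.46 in pair 1, -0.15 in pair 2 and -0.013 in pair 3, without fluoxetine-titled array 1 it was -0.16, and without vehicle-titled array 3 it was -0.051. The other Fdps probe set lay near an intensity of 5 on every array, between 5.06 and 5.35.

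Fdft1 encodes squalene synthase, which joins 2 farnesyl diphosphates in the first step committed to sterols. Its probe set of highest mean had intensities of 11282, 9619 and 10755 on fluoxetine-titled arrays 1 to 3 and of 8772, 9930.3 and 8673 on vehicle-titled arrays 1 to 3. Vehicle-titled array 2 lay above fluoxetine-titled array 2, so the groups overlapped. The log2 difference was 0.21 ± 0.13 (95% interval -0.10 to 0.52). The name of this probe set ends in _x_at, which marks probes that may match other transcripts, as does that of the second Hmgcs1 probe set. That of the first Mvd probe set ends in _s_at, a further ending for probes that may match other transcripts.

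A second kept probe set of Fdft1 had 2094, 1468 and 1428 on fluoxetine-titled arrays 1 to 3 and 1659, 1479.5 and 1296 on vehicle-titled arrays 1 to 3, a log2 difference of 0.15 ± 0.19. Like the first it was higher on the fluoxetine-titled array in pairs 1 and 3 and not in pair 2 (0.34, -0.011 and 0.14). Without fluoxetine-titled array 1 its difference was -0.022. A further 2 probe sets of Fdft1 stayed between 3.65 and 5.42 on every array.

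**Figure D2:**
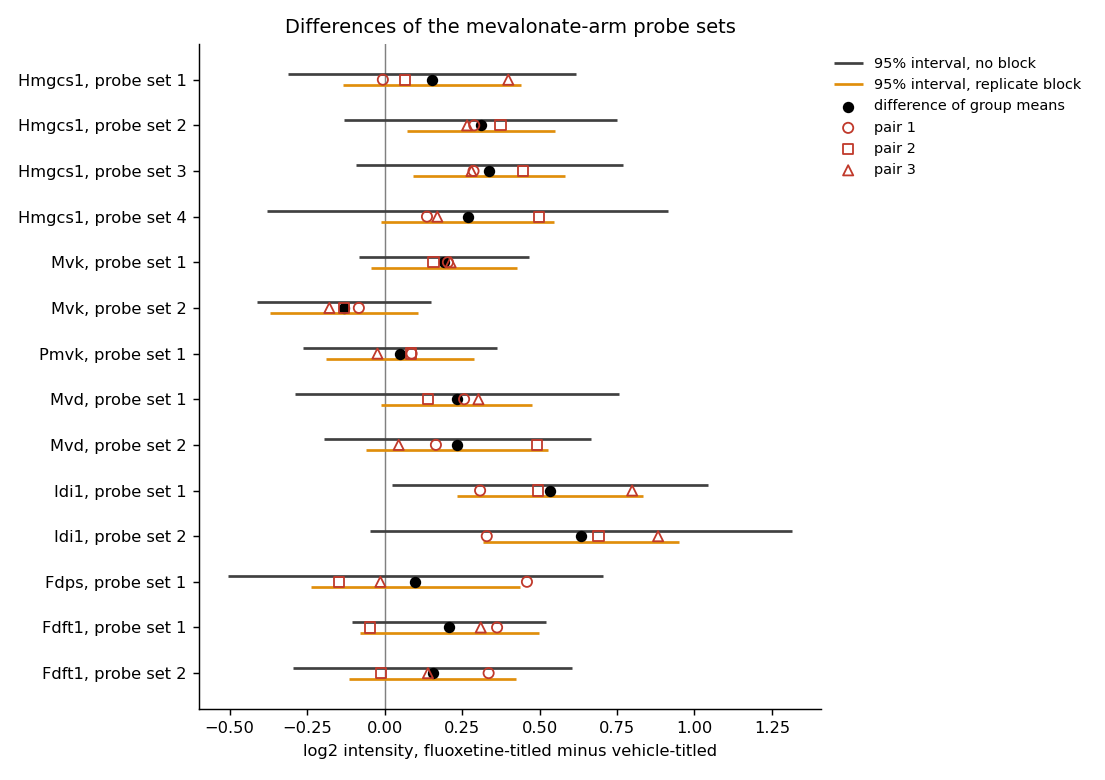
Log2 difference, fluoxetine-titled minus vehicle-titled, of the 14 kept probe sets of 7 mevalonate-arm genes, numbered within a gene by mean intensity; filled points are differences of group means, open symbols the 3 pairs, dark lines the 95% interval of limma without a block and orange lines that with the replicate number as a block. Of the 14, 13 lie above 0 and the second probe set of Mvk below it, and the first probe set of Idi1 is the only one whose dark interval leaves out 0.

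Counted over probe sets, 13 of 14 had a positive difference, 8 were higher in all 3 pairs and 1 was lower in all 3. Over all genes kept these shares were 47.8%, 10.9% and 13.1%, and they were not computed over all probe sets. With the replicate number as a block, 4 of the 14 had an unadjusted p under 0.05, beside 4.02% of all probe sets, and these were the 2 of Idi1 and 2 of Hmgcs1. Probe sets of 1 gene report the same message, so these counts are not independent observations.

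The enzymes after squalene, which close and trim the sterol rings, had the same sign in most cases. Of 10 genes kept of the 11 listed, 9 had a positive difference and 6 were higher in all 3 pairs, with a median log2 difference of 0.14. Over all genes kept, 47.8% had a positive difference and 10.9% were higher in all 3 pairs. None passed the test across all probe sets. The 3 largest were those of the lanosterol demethylase gene Cyp51, with 0.27 ± 0.15, the methylsterol oxidase gene Msmo1, with 0.24 ± 0.17, and the squalene epoxidase gene Sqle, with 0.21 ± 0.16. Ebp, the sterol isomerase, was the 1 with a negative difference, -0.16 ± 0.15, and was lower in all 3 pairs. Without vehicle-titled array 3 the median was 0.064, with 6 of 10 positive, and without fluoxetine-titled array 1 it was 0.037.

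Genes that sense or take up sterols had a median of 0.039, with 7 of 9 positive, and without vehicle-titled array 3 of 0.036, with 6 of 9. Insig1, whose protein retains the SREBP escort in the endoplasmic reticulum and whose gene SREBP induces, had intensities of 230.1, 236 and 291 on fluoxetine-titled arrays 1 to 3 and of 179, 190.2 and 165 on vehicle-titled arrays 1 to 3. Its fluoxetine-titled values lay above the vehicle-titled ones without overlap, as did those of 1.63% of genes kept, and the log2 difference was 0.50 ± 0.15. The sterol transport gene Stard4 had 0.38 ± 0.27, and Mylip, which encodes a ligase that removes lipoprotein receptors, -0.17 ± 0.16. Srebf2, the SREBP gene most tied to cholesterol synthesis, had 0.14 ± 0.15, with 0.41, 0.098 and -0.077 in pairs 1 to 3. The other SREBP gene, Srebf1, had -0.088 ± 0.23.

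Of 12 genes kept from the branches that use isoprenoids for other ends, 4 had a positive difference, and the median was -0.073. The 3 largest were negative, at -0.19 ± 0.13 for the prenylcysteine methyltransferase gene Icmt, -0.17 ± 0.13 for the ubiquinone synthesis gene Pdss2 and -0.14 ± 0.15 for the prenyltransferase subunit gene Rabggtb. Without vehicle-titled array 3 the median of these branches was -0.14, with 3 of 12 positive. Genes of acetyl-CoA supply and of HMG-CoA side reactions had a median of 0.14 with 6 of 7 positive, and without vehicle-titled array 3 the median was -9.6e-05. Their 3 largest were the acetoacetyl-CoA synthetase gene Aacs at 0.37 ± 0.46, Acss2 at 0.21 ± 0.24 and the citrate lyase gene Acly at 0.18 ± 0.14. No gene of these lists passed the test, and no difference between lists was tested.

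**Figure D3:**
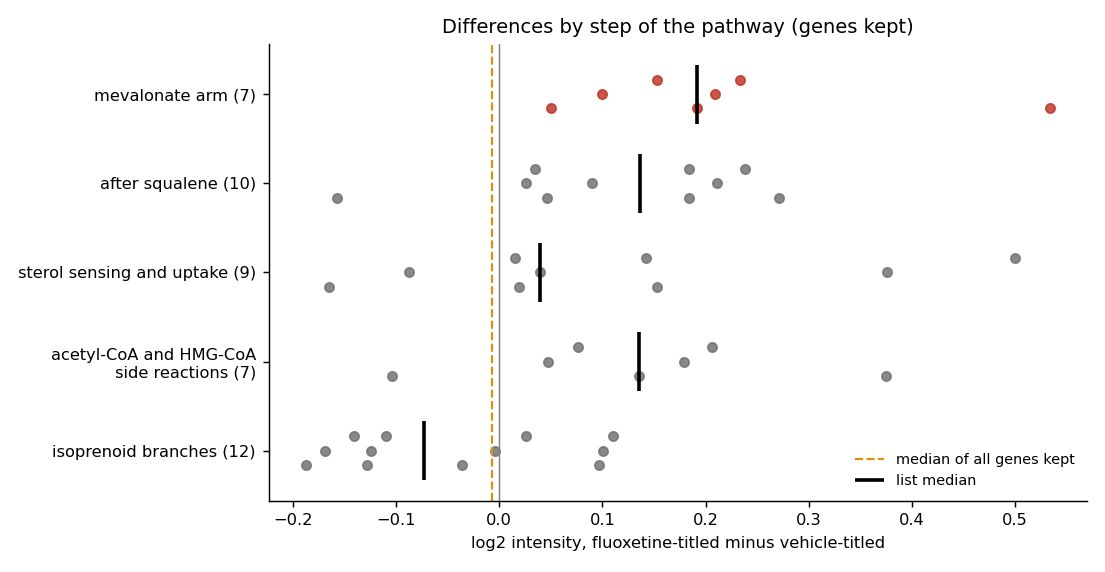
Log2 difference, fluoxetine-titled minus vehicle-titled, of each gene kept, by step of the pathway, with the number of genes in brackets; points are single genes, black bars list medians, and the dashed line the median of all 10830 genes kept. The medians are 0.19 for the mevalonate arm, 0.14 after squalene and -0.073 for the isoprenoid branches.

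The members did not share 1 pattern over the arrays. After centring each gene's log2 intensity over the 6 arrays, the mean of the 7 members was 0.23, 0.12 and -0.030 on fluoxetine-titled arrays 1 to 3 and -0.0097, 0.0082 and -0.31 on vehicle-titled arrays 1 to 3. Hmgcs1, Mvd and Idi1 had their lowest value on vehicle-titled array 3, Fdft1 nearly equal low values on vehicle-titled arrays 1 and 3, and Pmvk its highest there. Of 10209 other genes at 50 or above on every array, those most like this mean profile were Sema3c, Msmo1, Efemp1, Lss and Cd81. Msmo1 and Lss, the lanosterol synthase gene, are enzymes after squalene, a list chosen like the members with earlier results of these data known. The likeness was Pearson's r over 6 arrays, from 0.977 for Cd81 to 0.992 for Sema3c. It is a description of genes picked for it, and effects shared by arrays enter it.

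Markers of other cell types differed between arrays as well. All 15 astrocyte markers listed were kept, with a lowest group mean of 89.8, and 14 had a positive difference. Their median was -0.055 in pair 1, -0.017 in pair 2 and 0.71 in pair 3. Their summed intensity ran from 53104 to 62328 on the fluoxetine-titled and from 38571 to 64521 on the vehicle-titled arrays, lowest on vehicle-titled array 3. Without that array the median was -0.063, with 6 of 15 positive.

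Of 12 oligodendrocyte markers 11 were kept, with a lowest group mean of 333, and 9 were positive. Their pair medians were -0.13, -0.084 and 0.54, and their summed intensity ran from 29715 to 36804 on the fluoxetine-titled and from 21456 to 39960.0 on the vehicle-titled arrays. Without vehicle-titled array 3 their median went from 0.14 to -0.21, with 1 of 11 positive. Microglia markers, 7 kept of 10 with a lowest group mean of 43.5 and 6 positive, had pair medians of -0.29, 0.033 and 0.90 and sums from 2058 to 2847 and from 1250 to 3189. Without that array their median went from 0.20 to -0.19, with 2 of 7 positive. Interneuron markers, 10 kept of 10 and 6 positive, had pair medians of -0.086, -0.024 and 0.40 and sums from 33664 to 37816 and from 30618 to 38352, and without that array a median of -0.12 with 2 of 10 positive. The 5 markers of oligodendrocyte precursors had 3 positive and pair medians of 0.052, -0.17 and 0.011, and without that array a median of -0.097 with 1 of 5 positive.

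Endothelial and mural markers, 7 kept of 12 with a lowest group mean of 72.2, were 7 of 7 positive with pair medians of 0.25, 0.55 and 0.35 and sums from 2582 to 2914 and from 2030 to 2417. Without vehicle-titled array 3 their median was 0.35, with 5 of 7 positive. Their largest difference, 0.68 for the smooth muscle actin gene Acta2, exceeded that of Idi1. The 11 layer 5 markers kept had 2 positive, a median of -0.11 and sums from 43298 to 54306 and from 46203 to 58680.1, and without vehicle-titled array 3 a median of -0.049 with 5 of 11 positive.

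In pair 1 the members' median was 0.26, with 6 of 7 positive, and the median of all genes kept was 0.00069. The astrocyte, oligodendrocyte, microglia and interneuron medians were negative in this pair, and that of oligodendrocyte precursors was positive. The endothelial and mural median was positive like that of the members in all 3 pairs. Idi1 was positive in each pair with either probe set, as given above. In pair 3 the medians of the members and of the astrocyte, oligodendrocyte, microglia and interneuron lists were positive, with 5 of 7 members positive. The part of these cell types in the members' differences was not tested, and in such purified RNA more cells of a type and more RNA per cell cannot be told apart.

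**Figure D4:**
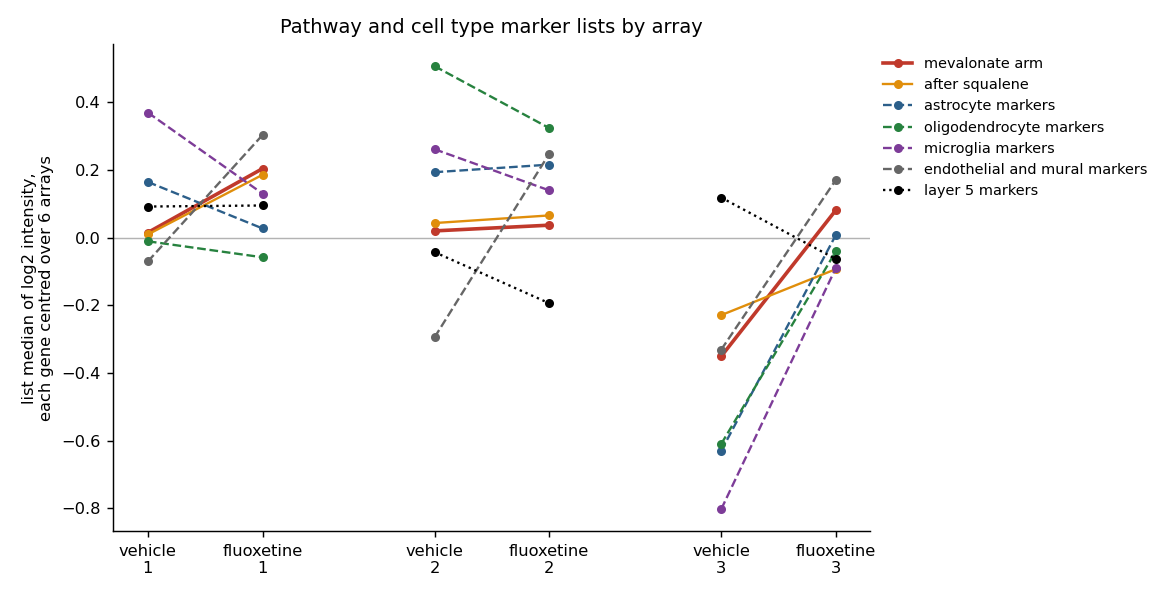
Median over the genes of a list of log2 intensity centred over the 6 arrays (y axis), for each vehicle-titled and fluoxetine-titled array, with lines joining arrays of equal replicate number; solid lines are the mevalonate arm and the enzymes after squalene, broken lines cell type markers. Vehicle-titled array 3 is the lowest for the mevalonate arm (-0.35), astrocyte (-0.63), oligodendrocyte (-0.61) and microglia (-0.80) lists, and the mevalonate arm is higher on the fluoxetine-titled array of each pair.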

How the data were processed

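The deposited intensities, 1 for each array and probe set, were computed by the authors with GCRMA, as the submitters' processing notes say, from RNA amplified in 2 cycles from 15 ng per the labels' protocols. GCRMA corrects background from probe sequence and normalizes between arrays, so intensities of different probe sets share no scale and levels were not compared between genes. The summed intensities of marker lists weigh the brightest probe sets most and do not give the level of a list as a whole. Its version is not given in the sources used here. Of 45101 probe sets, 64 controls were left out, and 19073 with a mean of at least 50 in at least 1 group were kept. Platform annotation gave 34945 probe sets 1 symbol, 932 several and 9160 none, and Entrez identifiers changed 0 symbols against RefSeq.

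The treatment difference (fluoxetine-titled minus vehicle-titled) in log2 intensity was tested two-sided with limma 3.58.1 (lmFit, eBayes) in R 4.3.3, and p-values were adjusted by Benjamini-Hochberg over the kept probe sets, with a threshold of 0.05. The code was tested on simulated data. Replicate numbers in the titles pair the arrays: deviations of arrays of equal number correlated at 0.74, 0.60 and 0.50 across probe sets. The reported fit has no block, and its SE and intervals are given except where the block is named. Over the kept probe sets the median SE was 0.177 in this fit and 0.114 with the replicate block. The spread between pairs is thus part of the reported error. The number of arrays limits the precision.

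Named genes were the members with every probe set, the 3 largest differences per pathway list, the 5 genes most like the members' mean profile, and Colgalt2. Ebp, Srebf1 and Srebf2 were singled out after their values were seen. The members and lists were chosen with earlier results of these data known. Alternatives were other filters, scalings, floors, a pseudocount of 16, an intensity trend, the replicate block, averaged probe sets, and arrays or pairs left out.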

Additional observations from a re-analysis of the deposited data

How the results depend on the processing

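Under each of the 17 alternatives run, limma called 0 probe sets at an adjusted p of 0.05. The replicate block was one of them: it called 0, its smallest adjusted p was 0.993, and 767 lay under 0.05 unadjusted. The block moved no member across the threshold. With 1 array left out the members' median log2 difference lay between 0.13 and 0.26 and the count of positive members between 5 and 7, lowest without vehicle-titled array 3 in both cases. The count of members higher in all 3 pairs was 5 instead of 3 under quantile normalization, and the count without overlap was 0 instead of 2 with all probe sets of a gene averaged. With 1 array left out, Hmgcs1 lay between -0.048 and 0.26 and Fdps between -0.16 and 0.31, and Fdps was -0.081 without pair 1. The sign of Hmgcs1 turned without vehicle-titled array 3 and that of Fdps without fluoxetine-titled array 1 or vehicle-titled array 3; the cause was not tested. Idi1 lay between 0.31 and 0.69 and Mvd between 0.038 and 0.39, both lowest without vehicle-titled array 3. The medians of the pathway lists lay between 0.037 and 0.26 after squalene, 0.011 and 0.14 for sterol sensing and uptake, and -0.15 and -0.0081 for isoprenoid branches. Idi1, Mvk, Mvd, Pmvk and Fdft1 kept a positive sign under each alternative for the gene's probe set of highest mean. The mean over a gene's probe sets was taken with all arrays only, and was positive for these 5 genes.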
